A study of Rattus norvegicus with 2 samples.

Results

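Receptors for serotonin, dopamine, noradrenaline, acetylcholine, histamine, adenosine, ATP and the opioid peptides were examined in RNA from rat hippocampal synaptosomes and from the whole hippocampus. All probe sets with a single gene symbol in the platform annotation that names such a receptor were taken, by the start of the symbol (Htr followed by a digit, Drd, Adra, Adrb followed by a digit, Chrm, Chrn, Hrh, Adora, P2rx, P2ry or Opr). This gave 98 of 8740 non-control probe sets, for 69 genes. One of them, Oprpn, begins with Opr but encodes a precursor of the peptide opiorphin and not a receptor. Adora3, an adenosine receptor, is missing because its 3 probe sets carry several gene entries. Synaptosomes are pinched-off nerve endings, which the labels describe as pre- and postsynaptic. One array held RNA from synaptosomes and 1 held RNA from total hippocampus, both from Sprague Dawley rats at postnatal day 70, with no treatment named. The number of animals behind either sample is not stated in the labels. Each value is therefore a single measurement with no replicate error, and no test between the fractions was possible.

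Most of these receptors couple to G proteins: the Gs class raises cyclic AMP, the Gi class lowers it and opens potassium channels, and the Gq class releases calcium from internal stores. The nicotinic, P2X and Htr3 receptors are ion channels opened directly by acetylcholine, ATP and serotonin. In the hippocampus acetylcholine and the monoamines come mostly from fibres whose cell bodies lie elsewhere, such as the septum, locus coeruleus and raphe nuclei, while adenosine, ATP and opioid peptides are largely released by local cells. The receptors adjust transmitter release and excitability.

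Of the 98 receptor probe sets, 10 gave a signal above background on at least 1 array, and 88 did not. Signals are the authors' intensities, and the background of an array was set at the 95th percentile of the size of its negative values, which was 2912.6 for synaptosomes and 5280.25 for total hippocampus. On the synaptosome array 9 of 98 receptor probe sets lay above background, or 9.18%, against 23.9% of all non-control probe sets. On the hippocampus array 4 of 98 did, or 4.08%, against 14.7% of all. Only 3 probe sets, for Adra2a, Chrnb4 and Drd3, lay above background on both arrays, which is 3.06% against 13.6%. Counted by gene, 9 of 69 receptor genes had a probe set above background on at least 1 array, or 13.04%, against 29.3% of the 4736 genes with a single symbol. The 60 others had none. The larger count in synaptosomes goes with the lower background there: with 5280.25 as the level on both arrays, 3 receptor probe sets passed in synaptosomes and 4 in hippocampus.

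Receptor signals were also lower in the middle of their range than those of the array as a whole. Their median signal was 404.5 in synaptosomes, where all non-control probe sets had 811, and 302 in total hippocampus, where all had 889. Signals at or below 0 made up 32 of 98 in synaptosomes, or 32.7%, against 25.2% of all probe sets. In total hippocampus they made up 40 of 98, or 40.8%, against 31.4% of all. The arrays shared 20 of these receptor probe sets. A signal under background gives no measured level, and it does not show that a receptor mRNA was absent.

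**Figure D1:**
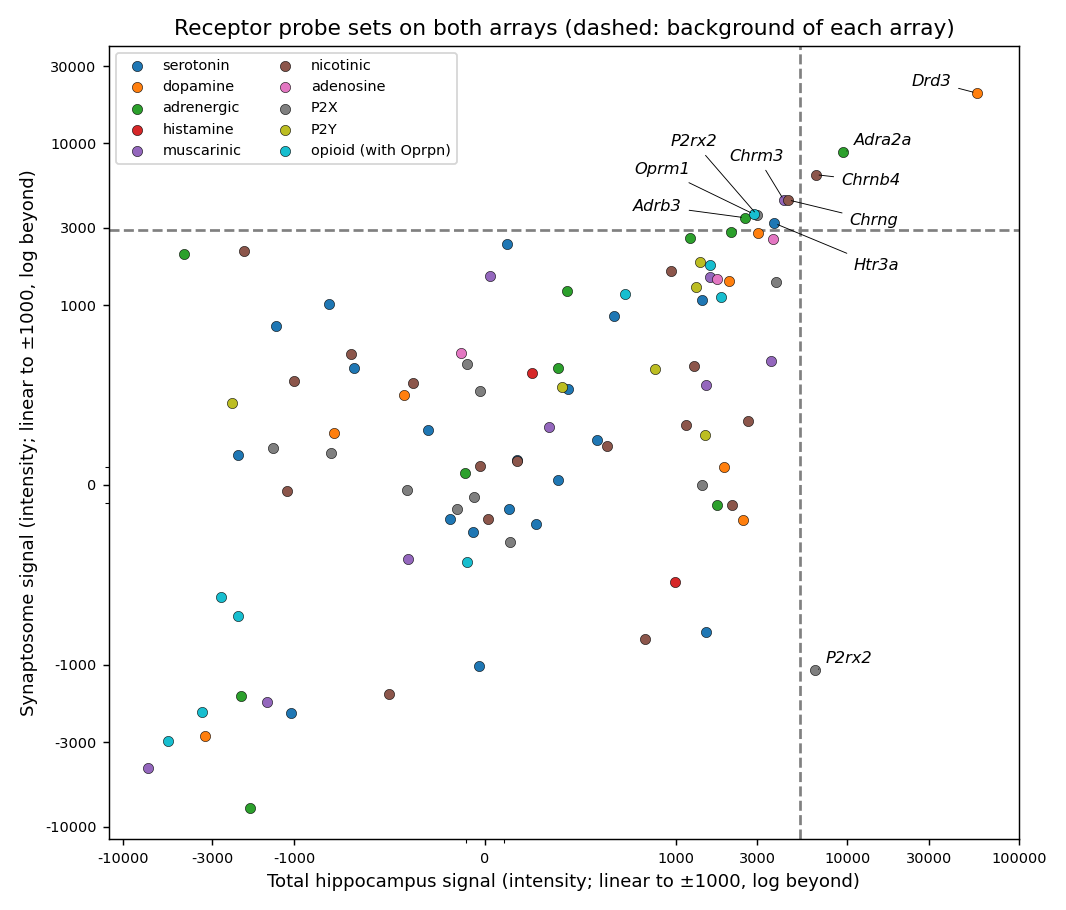
Signal of each of the 98 probe sets in total hippocampus (x axis) and synaptosomes (y axis), in intensity units that are linear to ±1000 and logarithmic beyond, coloured by receptor family. Dashed lines mark each array's background of 5280.25 and 2912.6. The 10 named points lie above at least 1 of them, and all others fall in the lower left quadrant.

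The arrays did register neuronal genes, with 8 of 14 probe sets of general neuron markers above background in synaptosomes and 6 in hippocampus. Nrgn, or neurogranin, a calmodulin-binding protein of excitatory forebrain neurons, read 15888 in synaptosomes and 20166 in hippocampus with 1 probe set and 13062 and 29598 with the other. Snap25, a protein of vesicle fusion, read lower in synaptosomes with all 4 designs. One of these read 32782 and 109086, and another lay under background at 1895 and 3556. Map2, on the same list, went the other way with its designs above background. These read 26648 and 18532, 15691 and 9687, and 4743 and 2861. Its designs under background read 1888 and 2465, and 904 and 1536. Syt1, also on the list, lay under background at 1244 and 1096. The neuronal cytoskeletal gene Nefl read 18506 and 13796 with 1 of its designs. Of 10 probe sets for excitatory neuron markers 6 lay above background in synaptosomes and 4 in hippocampus. Those under background included Slc17a7, the vesicular glutamate transporter of these neurons, at -667 and -3063, and both designs of the neuronal kinase gene Camk2a also lay under background. Inhibitory neuron markers had 2 of 8 probe sets above background on each array, those of Gad1 and Npy. Of probe sets for glial markers, 10 of 16 for astrocytes lay above background in synaptosomes and 9 in hippocampus, and for oligodendrocytes 6 of 11 and 7 of 11. For microglia 2 of 8 and 1 of 8 did, for choroid plexus 1 of 4 on each array, and for endothelium and blood 1 of 6 and 2 of 6. Markers of striatum, a list that shares Adora2a, Drd1 and Drd2 with the receptors, had 1 of 7 above background in synaptosomes and 0 in hippocampus. That probe set was for Penk, at 2917, just above the background of 2912.6. The part of glial and other non-neuronal RNA in the receptor signals was not tested. With RNA from bulk fractions, fewer cells of a type and less RNA per cell cannot be told apart.

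Adrenergic receptors, which answer noradrenaline from the locus coeruleus, had 2 of 11 probe sets above background in synaptosomes and 1 in hippocampus. Adra2a, a Gi-coupled receptor that serves as an autoreceptor on noradrenergic endings and also acts on target neurons, read 8843 in synaptosomes and 9507 in hippocampus with S79778mRNA_s_at. Its other 2 probe sets were negative throughout, at -1568 and -2052 for M62372cds_s_at and at -7641 and -1822 for U79031_at. The gene was therefore detected on both arrays by 1 of 3 designs. After the arrays' common shift described below was removed, the log2 ratio of synaptosome to hippocampus for the detected design was 0.07. Adrb3, the adrenergic receptor best known from fat tissue, read 3470 and 2541 and passed background in synaptosomes only. Adrb1, the beta receptor that couples noradrenaline to cyclic AMP in forebrain neurons, read 649 and 384, under the background of both arrays. Among Gq-coupled members, Adra1d read 2825 and 2103 with AF071014mRNA_s_at and 2077 and -4407 with M60654_at. Adra1a read 1228 and 430, and Adra1b read -112 and 1740. Of the remaining Gi-coupled members, Adra2b read 66 and -104 and Adra2c read 2586 and 1220. None of these values passed background.

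Dopamine receptors were represented by 8 probe sets for 5 genes, and only 1 design of Drd3 passed background. That design, X53944_at, read 20466 in synaptosomes and 56810 in hippocampus, above background on both arrays. The signal was lower in synaptosomes by 2.78-fold, or by 2.47-fold after the centring described below. Drd3 encodes a Gi-coupled receptor known mainly from the nucleus accumbens and the islands of Calleja. Its other probe set, A17753cds_s_at, read 502 and -425, so that the designs for Drd3 disagreed on whether the gene was detected at all. Whether X53944_at also registers other transcripts was not tested. Drd1, the Gs-coupled receptor typical of striatal neurons, read -196 and 2471 with M35077_s_at. It read 100 and 1909 with S46131mRNA_r_at and 289 and -789 with S46131mRNA_s_at, a pair designed on the same source sequence. Drd5, the Gs-coupled receptor known from hippocampal neurons, read 2785 and 3035, with its synaptosome signal just under the background of 2912.6. Drd4 read 1416 and 2038, and Drd2, which is Gi-coupled and abundant in striatum, read -2740 and -3310.

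Serotonin receptors formed the group with the most probe sets, 20 for 13 genes, and 1 of these passed background, in synaptosomes only. It was U01227_s_at for Htr3a, the subunit of the serotonin-gated channel found on hippocampal interneurons, which read 3211 and 3764. Its other designs read -816 and 1503 for D49395_s_at and 27 and 383 for U59672_at. Htr1a, the inhibitory Gi-coupled receptor well known from hippocampal pyramidal cells, read 1019 in synaptosomes and -817 in hippocampus, under background on both arrays. The other receptors of its type also lay under background, with Htr1b at -1972 and -1051, Htr1d at 252 and 586 and Htr1f at -1012 and -29. The Gq-coupled Htr2a read 532 and 434 with 1 probe set and 137 and 171 with the other. Htr2c, which is abundant in choroid plexus, read -191 and -183 with 1 probe set and 307 and -297 with the other, and Htr2b read 1083 and 1419. So neither Htr2c design registered. Of the choroid plexus markers, 1 design of Ttr, the gene for transthyretin, read 5060 and 8459, while its other design and those of Aqp1 and Kl lay under background on both arrays. Among the Gs-coupled members, the 3 probe sets of Htr4 ranged from -264 to 167 in synaptosomes and from -2114 to 129 in hippocampus. Htr6 read 885 and -1283, and Htr7 read 649 and -687 with 1 design and -219 and 268 with the other. Htr5a read 941 and 677. Htr5b, whose human counterpart is a pseudogene, read 2397 and 118.

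Muscarinic receptors, which carry the slower effects of septal acetylcholine, had 1 of 9 probe sets above background in synaptosomes and 0 in hippocampus. Chrm3, a Gq-coupled subtype, read 4449 in synaptosomes and 4285 in hippocampus with M16407_at, and 322 and 336 with AB017656_s_at. With M16407_at the signals in the fractions lay close together, and only that in synaptosomes passed background. The readings of the other design lie under background and give no measured level. Chrm1, the Gq-coupled subtype that predominates in hippocampal pyramidal cells, was negative with both of its designs, at -1709 and -1450 for AJ006522mRNA_at and at -4332 and -7092 for M16406cds_s_at. Chrm2, a Gi-coupled subtype that acts as an autoreceptor on cholinergic endings, read 1507 and 25 with AB017655_s_at and 557 and 1507 with J03025_at. These designs point in opposite directions. Chrm4, also Gi-coupled, read 1491 and 1588 with 1 design and -412 and -401 with the other. Chrm5, the Gq-coupled subtype known from midbrain dopamine neurons, read 687 and 3577.

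Nicotinic subunits had 2 of 18 probe sets above background in synaptosomes and 1 in hippocampus. Chrnb4, a subunit of the nicotinic receptors of autonomic ganglia and the habenula, read 6408 and 6545 with U42976_at, above background on both arrays. It read 354 and 2642 with J05232cds_s_at. Chrng, the subunit of fetal muscle receptors, read 4479 and 4510, above background in synaptosomes only. The subunits known best from brain lay under background. Chrna7, which forms calcium-permeable channels on hippocampal interneurons and endings, read 1625 and 975 with L31619_at, 731 and -700 with L31619_g_at and -31 and -1098 with S53987_at. Chrna4, which assembles with Chrnb2 into the main heteromeric brain receptor, read 661 and 1278. Chrnb2 itself read 2168 and -1958. Of the other neuronal subunits, Chrna2 read 216 and 641, Chrna3 580 and -1010, Chrna5 103 and -25, Chrna6 -190 and 14 and Chrnb3 135 and 170. The subunit of hair cells, Chrna9, read 569 and -377. The remaining muscle subunits Chrna1, Chrnb1, Chrnd and Chrne ranged from -1511 to 332 in synaptosomes and from -502 to 2126 in hippocampus, so that Chrng was the only muscle subunit above background.

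Receptors for ATP had 12 P2X and 6 P2Y probe sets. P2rx2, an ATP-gated cation channel subunit, had 6 designs and passed background with a different one on each array. AF020756_s_at read 3627 in synaptosomes and 2977 in hippocampus. AF020758_at read -1082 and 6505, and AF020758_g_at, designed on the same source sequence, read -1 and 1420. The other 3 designs ranged from -133 to -30 in synaptosomes and from -410 to -59 in hippocampus. The designs thus gave neither a common level nor a common direction. P2rx3, a subunit of sensory neurons, read 1384 and 3858. P2rx4, a channel of neurons and microglia, read 673 and -92, and P2rx7, known from microglia, read 178 and -806. P2rx1 read 203 and -1335, P2rx5 -319 and 130 and P2rx6 522 and -27. No P2Y receptor passed background. P2ry1, P2ry2, P2ry4 and P2ry6, which couple to Gq, ranged from 545 to 1836 in synaptosomes and from 404 to 1381 in hippocampus. The Gi-coupled P2ry12, a marker of microglia, read 455 and -2307, and P2ry14 read 278 and 1494.

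The adenosine, histamine and opioid receptors added 1 probe set above background. Adora1, the Gi-coupled adenosine receptor that restrains glutamate release in the hippocampus, read 733 in synaptosomes and -124 in hippocampus. The Gs-coupled Adora2a, abundant in striatum, read 2559 and 3686, and Adora2b read 1460 and 1734. None of the adenosine receptors passed background. Hrh1, a Gq-coupled histamine receptor, read -537 and 999, and the Gs-coupled Hrh2 read 621 and 247. Oprm1, the mu opioid receptor that sits on hippocampal interneurons, passed background in synaptosomes with S79903mRNA_at at 3649, against 2864 in hippocampus. S79903mRNA_g_at, from the same source sequence, read -2963 and -5436. The other designs of Oprm1 read 1763 and 1598 for S77863_s_at and 1116 and 1850 for D16349_at. The delta receptor Oprd1 read -625 and -2658. The kappa receptor Oprk1 read -730 and -2131 with 1 design and -426 and -95 with the other. The nociceptin receptor Oprl1 read 1178 and 733, and the non-receptor Oprpn -1970 and -3451.

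**Figure D2:**
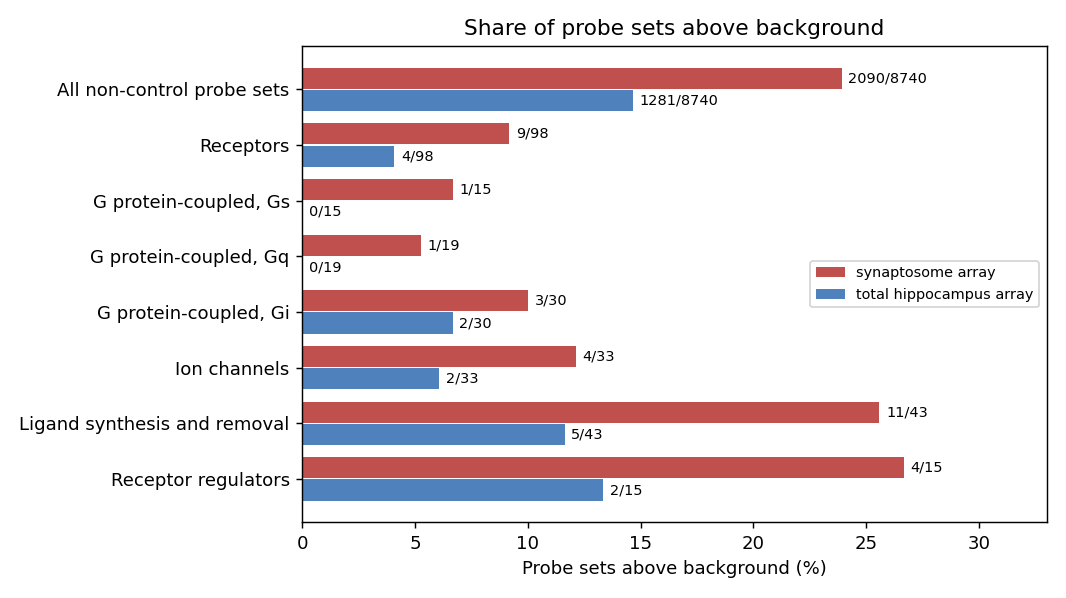
Percentage of probe sets above background on the synaptosome array (red) and the total hippocampus array (blue), with the counts beside each bar. All receptors stand at 9.18% and 4.08%, below the 23.9% and 14.7% of all non-control probe sets, while the list of ligand synthesis and removal stands at 25.6% and 11.6%.

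By signalling class the counts were small throughout. Ion channel subunits had 4 of 33 probe sets above background in synaptosomes and 2 in hippocampus. Gi-coupled receptors had 3 of 30 and 2 of 30, Gq-coupled receptors 1 of 19 and 0, and Gs-coupled receptors 1 of 15 and 0. No class reached the share of all probe sets on either array. Only 2 of the 98 probe sets, those of P2ry12 and Oprl1, were designed on expressed sequence tags (an rc_ prefix), and the others on other database entries. Over the whole array, 23.2% of the 5323 probe sets without the prefix lay above background in synaptosomes and 13.9% in hippocampus.

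Designs of one gene often differed in whether they registered. Of the 69 genes, 18 had several probe sets, 47 in all. In 7 of the 18 at least 1 design passed background on an array, and in 0 did all designs pass. The same counts were not made for other genes, so they cannot show whether designs of receptor genes differ more than those of others. Counted by probe set, 10 of 98 for receptors passed on at least 1 array, against 25% of all non-control probe sets. The 7 genes with several designs of which at least 1 passed were Adra2a, Drd3, Chrm3, Chrnb4, P2rx2, Oprm1 and Htr3a. The remaining detected genes, Adrb3 and Chrng, had a single design each. The detection of every receptor above background therefore rests on 1 design per array.

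**Figure D3:**
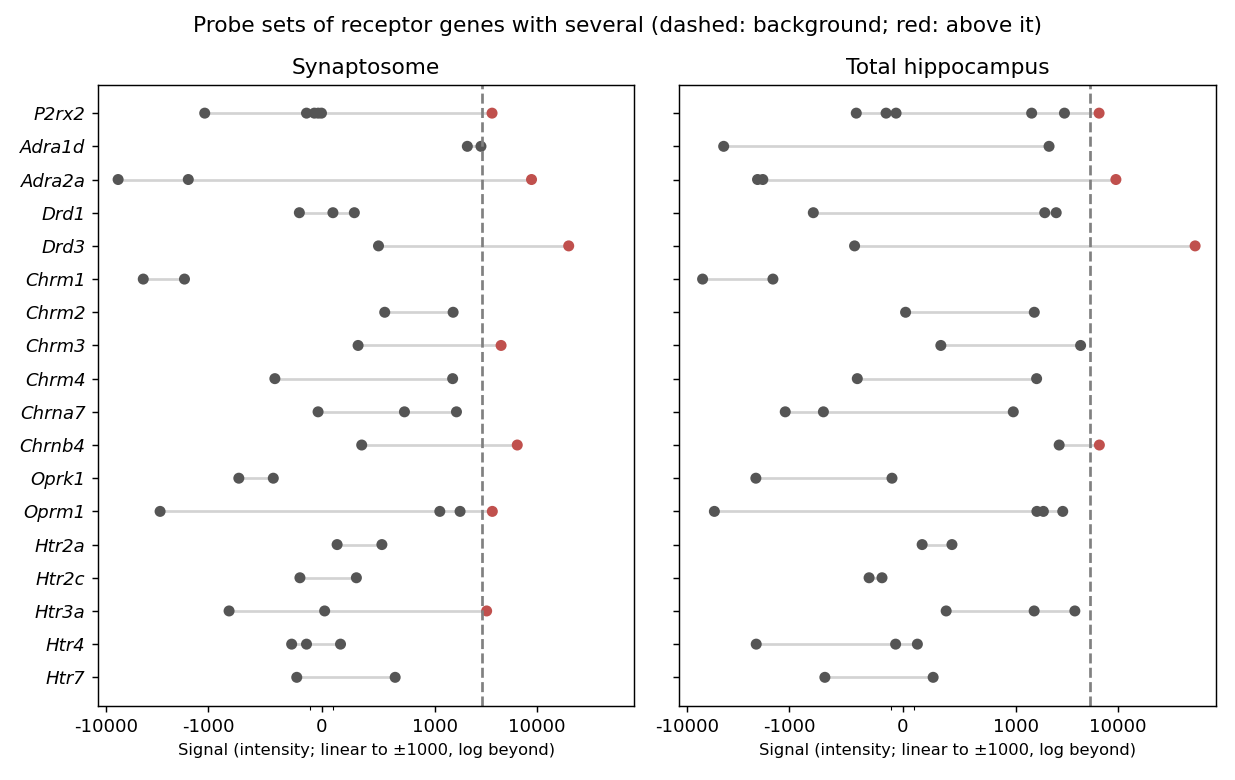
Signals of all 47 probe sets of the 18 receptor genes with several designs, in synaptosomes (left) and total hippocampus (right), on an intensity axis linear to ±1000 and logarithmic beyond. Each row is a gene, each point a probe set, the dashed line the background, and red points lie above it. No row holds more than 1 red point in a panel.

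The fractions were compared by the relative signal of each mRNA in synaptosomes and in the whole hippocampus. Such a ratio does not give an amount at synapses, and glial markers also registered in synaptosomes. For ratios, signals under a floor of 846, the pooled median of the non-control values, were raised to that value before the log2 step. The median ratio of all probe sets past a filter on mean level, -0.17, was then subtracted. A gene took its probe set with the highest mean level. Where 1 array was at the floor, the ratio is written "at least". It holds only with this floor and this centring and is not a guaranteed minimum, since the floor lies well under both backgrounds. Of the 69 genes, 29 passed the filter, and for 20 of them no probe set lay above background on either array. Those 29 are a selection by signal and do not stand for all receptors.

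Of the 29 genes, 4 stood 2-fold or more above hippocampus in synaptosomes, where 19.1% of all 2735 genes did, and 5 stood 2-fold or more below it, where 14.3% of all did. These are 13.8% and 17.2% of the 29. The median log2 ratio was 0.08, against 0.00 over all genes. With no centring, 3 were higher and 6 lower, and the median was -0.09, against -0.17 over all genes, of which 14.7% were then 2-fold higher and 19.5% lower. The ratio differed between probe sets of a gene by an SD of 0.90 over 658 genes of the whole table. That SD does not include animals or preparations, and 2-fold is 1 on this scale.

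Drd3 was the only 1 of the 9 genes past 2-fold whose signals lay above background. Its centred log2 ratio was -1.30, and it ranged from -1.56 to -1.15 in the 7 alternative settings. All of these start from the same readings of 1 design, 20466 and 56810, so they give no separate support. The second design of Drd3 was under the floor on both arrays and gave no ratio. The other 8 rested on signals under background on both arrays. Higher in synaptosomes were Htr5b by at least 3.19-fold, Chrnb2 by at least 2.88-fold, Adra2c by 2.39-fold and Chrm2 by at least 2.004-fold. Chrm2 lay at the threshold, and its log2 ratio was 0.83 without centring, 0.92 after quantile normalization, 0.96 without the filter and 0.17 with the mean over probe sets. Its second design was at least 1.58-fold lower, and without suffixed probe sets its ratio was -0.82. Lower in synaptosomes were Chrm5 by at least 3.76-fold, Drd1 by at least 2.60-fold, P2rx3 by 2.48-fold and Chrnb1 by at least 2.23-fold. A second design of Drd1 was at least 2.01-fold lower, and the third gave no ratio. With a floor of 2798.5, near the background of synaptosomes, Chrm5 and P2rx3 were at -0.27 and -0.38 on the log2 scale.

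Besides Drd3, 8 receptors were above background in synaptosomes, and the designs used for them lay within 2-fold. The centred log2 ratio was 0.07 for Adra2a, 0.14 for Chrnb4, 0.16 for Chrng, 0.22 for Chrm3, 0.52 for Oprm1, 0.62 for Adrb3, 0.46 for P2rx2 and -0.06 for Htr3a. Each was smaller than the SD between designs of a gene. The second design of Chrnb4 was at least 2.78-fold lower and that of Htr3a at least 1.58-fold lower. For P2rx2, AF020758_at was at least 6.83-fold lower and AF020758_g_at at least 1.49-fold lower, opposite to the design used. The log2 ratio of P2rx2 was -0.96 with the mean over its probe sets, -1.13 with the floor of 2798.5 and -2.93 without suffixed probe sets, so its direction depended on the design. For Adra1d, which was not detected, the design used had a ratio of 0.60 and the other was at least 2.76-fold higher. The other genes past the filter with log2 ratios between -1 and 1 were Chrna7 at 0.91, P2ry4 at 0.58, P2ry6 at 0.16, Chrm4 at 0.08, Drd5 at 0.05, Adora2b at -0.08, Htr2b at -0.22, Drd4 at -0.36 and Adora2a at -0.36, with bounds of -0.65 for P2ry14 and -0.87 for Adra1b. None of these had a signal above background.

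**Figure D4:**
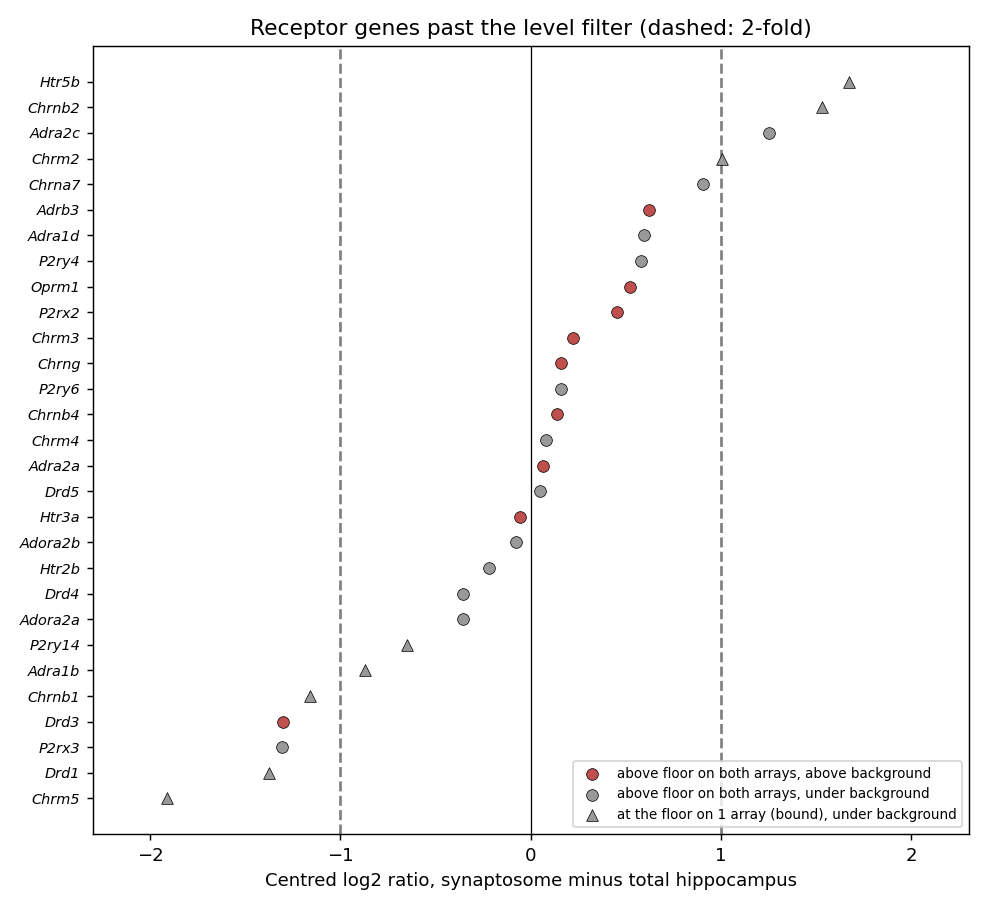
Centred log2 ratio of synaptosome to total hippocampus for the 29 receptor genes past the level filter, with dashed lines at 2-fold. Red points had a signal above background on at least 1 array, grey ones had none, and triangles are bounds with 1 array at the floor. Beyond the lines, Drd3 is the only red point.

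Genes that make, transport or break down the ligands registered at a share close to that of all probe sets. Of a list of 33, 27 were on the array with 43 probe sets, of which 11 lay above background in synaptosomes and 5 in hippocampus, or 25.6% and 11.6%. Monoamine oxidases were among them: Maob, which degrades monoamines in astrocytes and serotonergic neurons, read 7108 and 6860, and Maoa read 3589 and 4689 with 1 of its designs. Enzymes and transporters of the monoamine neurons themselves were mostly low, as Th, the rate-limiting enzyme of catecholamine synthesis, read -609 and 1611 and Dbh, which makes noradrenaline, 395 and 599. An exception was Slc6a3, the dopamine transporter, at 3385 and 1964 with S76145_s_at, and -83 and 911 with its other design. The cholinergic vesicle transporter Slc18a3 read 3856 and 6727 with 1 design and 890 and -341 with the other.

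Of 17 list genes past the filter, 2 stood 2-fold or more higher and 1 lower, which is 11.8% and 5.88% against 19.1% and 14.3% of all genes, with a median log2 ratio of 0.00. Entpd1, an enzyme that degrades extracellular ATP, was 3.23-fold lower in synaptosomes, with signals of 2317 and 8433. Its relative Entpd2 was 2.10-fold higher with 1 design, at 3581 and 1916, of which only the synaptosome signal passed background. The other Entpd2 design, from the same source sequence, read 127 and 653, under the floor on both arrays, and gave no ratio. Pdyn, which encodes the dynorphin precursor, was at least 11.6-fold higher with M32783cds_i_at, whose hippocampus reading was -13765, and at least 2.21-fold lower with its other design. Penk, the enkephalin precursor, read 2917 and 3282. Adk, which removes adenosine, read 3609 and 2743, and the adenosine transporter Slc29a1 read 3386 and 6115. Each of these 3 lay within 2-fold.

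Genes that regulate receptors after activation were covered by 9 of 16 listed names, with 15 probe sets. Of these probe sets, 4 lay above background in synaptosomes, or 26.7% against 23.9% of all, and 2 in hippocampus, or 13.3% against 14.7%. Gipc1, a scaffold that binds receptor tails, read 53114 and 73866 with AF089817_i_at and 11089 and 20695 with rc_AI639271_f_at. Both designs lay above background on both arrays, but AF032120_s_at read -365 and -441. Grk6, a kinase that phosphorylates active receptors, read 3570 and 2717 with 1 design and -33 and 1522 with the other. The arrestins Arrb1 and Arrb2, which uncouple phosphorylated receptors, lay under background with all 3 designs. Of the 4 genes past the filter 0 were past 2-fold in either direction, against 19.1% higher and 14.3% lower of all genes. With only 4 genes, this count does not set them apart. Their median log2 ratio was -0.32.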

How the data were processed

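Synaptosomal and total hippocampal RNA were each measured on 1 array. Per the labels' protocols, RNA was purified on columns, amplified with the SMART cDNA kit and a T7 oligo(dT) primer, and labelled with biotin. The authors deposited linear intensity values, whole numbers that can be negative. Not given in the sources used here are the scanner software and its background correction. Means trimmed of 2% of values at each end were 2504 and 2505, so no scaling was added. Gene symbols came from the platform annotation; all 69 receptor gene identifiers were found in the RefSeq table of assembly GRCr8, with 0 symbols changed. Backgrounds, floor and centring were computed over the 8740 non-control probe sets, and 59 control probe sets were left out. The filter kept probe sets with a mean log2 level of at least 10.07. Every receptor gene is named by rule. The members and gene lists were chosen with earlier results of these data known. Precision is limited by the number of arrays. Alternatives changed the background level, floor, centring, filter, normalization and choice of probe set. Python 3.11.15, NumPy 2.4.6, pandas 2.3.3 and matplotlib 3.10.9 were used, and the code was tested on simulated data. In that test changes were planted in strong signals only, so changes in weak signals near the floor were not covered.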

Additional observations from a re-analysis of the deposited data

How the results depend on the processing

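The count of receptor probe sets above background followed the level chosen. With percentile 90 of the negative values it was 16 in synaptosomes, 9 in hippocampus and 7 on both, and with percentile 99 it was 3, 1 and 1. With the floor of 846 as background it was 32, 38 and 23. With the higher of the backgrounds on both arrays it was 3 in synaptosomes, and with the lower one, a setting chosen after seeing the data, 12 in hippocampus and 7 on both. Under each of these settings the share of receptors was below that of all probe sets. With the floor at percentile 75 of the signals, 14 receptor genes passed the filter, 0 were 2-fold higher and 2 lower, against 10.1% and 7.91% of all genes. With only probe sets above background on at least 1 array, 9 passed, 0 were higher and 1 lower, against 18.0% and 14.2% of all genes. Without suffixed probe sets Chrm2 turned to -0.82, since that setting leaves only its other design. P2rx2, reported at 0.46, was at -2.93 in that setting, -1.13 with the floor at percentile 75, where it is 1 of the 2 lower genes, and -0.96 with the mean over probe sets. Besides Chrm2, 8 receptor genes were past 2-fold, and none of these changed direction in a setting in which it had a value. The settings start from the same readings, so this gives no separate support. Of these genes only Drd3 had a value when probe sets had to lie above background. No paired analysis was possible because each group has 1 array.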
